A study of Mus musculus with 4 samples.

Results

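The 39 genes described here encode the machinery that licenses origins of DNA replication and copies the genome, together with the E cyclins that start S phase. They were taken by name from a list of replication genes, under the condition that the mean of the 4 libraries was at least 10 normalized reads. All 39 were found and all 39 met the condition, among 52459 genes listed and 16746 that met it. RNA came from the first pharyngeal arch, the outgrowth of the embryonic head that builds the jaws, of mouse embryos of 25 to 27 somites, aged E9.5 to E9.75. A pair of libraries came from wild-type embryos, and the other pair came from Wnt1-Cre;pMes-Bmp4 embryos, called transgenic here. In these, Cre recombinase under the Wnt1 promoter acts in the neural crest lineage and switches on a transgene for the ligand Bmp4. The series studies how molar patterning is disturbed in a model of syngnathia, or jaw fusion. No library of Wnt1-Cre or pMes-Bmp4 alone was analysed here, so the effect of the ligand and that of the transgenes themselves cannot be told apart. The labels do not say how many embryos or litters went into a library. P-values therefore measure the spread between libraries, which may be technical.

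Replication is prepared in G1, when the origin recognition complex marks origins and, with Cdc6 and Cdt1, loads the MCM2-7 helicase onto DNA. Geminin, the product of Gmnn, blocks Cdt1 once S phase has begun. Cyclin E with Cdk2 and the kinase Cdc7 then help to recruit Cdc45 and the GINS complex, which turn MCM2-7 into an active helicase. Polymerase alpha with primase starts each strand, the RFC complex loads the PCNA clamp, and polymerases delta and epsilon extend it. Fen1 and Lig1 finish the lagging strand, and ribonucleotide reductase supplies the deoxynucleotides. Many of these genes are transcribed at the G1 to S transition under E2F factors, so their mRNA levels are widely used as a readout of cycling cells. The RNA is of whole arches, and which of their cell types held these mRNAs was not tested.

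The libraries held 29607541 to 47849092 reads assigned to genes, and each deposited value is such a count over the size factor of its library. All 10 of 10 listed markers of arch mesenchyme and 9 of 10 of epithelium reached the minimum level. Of 6 Hox genes of more posterior arches 0 reached it, and they summed to 11.9 and 10.3 normalized reads in wild-type libraries, 6.4 and 6.06 in transgenic ones. Some markers of arch cell types moved between the groups, where limma called 2.97% of all genes tested higher and 5.28% lower. The 10 epithelium markers summed to 26393 and 19905 normalized reads in wild-type and to 35966 and 33169 in the transgenic libraries, and 2 of 9 tested were higher, Krt18 and Krt14. Of the mesenchyme markers 1 was higher, Prrx2, and 1 lower, Tfap2a, with sums of 21009 and 26411 against 29958 and 23029. These sums hide that 7 of the 10 were negative and 3 positive, with a median log2 fold change of -0.35. Prrx2 alone was at 6664 and 6995 against 15751 and 11812. The 8 erythroid markers summed to 674605 and 613782 against 341155 and 381176, and 3 of 8 tested were lower. The 6 muscle progenitor markers summed to 2684 and 2493 against 3748 and 3671, with 0 called in limma and edgeR, 2 higher in DESeq2 and 2 positive at an unadjusted p under 0.05. Of the 8 endothelium and the 8 neuron and ganglion markers 0 were called in limma and edgeR, and DESeq2 called 1 higher, of endothelium. After a correction for transcript length, given below, limma called 0 of the epithelium and 0 of the erythroid markers. Of the mesenchyme markers it then called 0 higher and 1 lower, Tfap2a, beside 0.610% and 0.931% of all genes. No marker of these lists was at 0 in all 4 libraries. The part of these cell types in the results for replication genes was not tested.

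Of the replication genes 7 were called higher in the Wnt1-Cre;pMes-Bmp4 arch and 32 were not called. At a limma adjusted p under 0.05, the 7 of 39 were Rfc5, Rrm1, Mcm5, Ccne2, Mcm6, Gins2 and Rrm2, which were 1.49-fold to 1.95-fold higher. limma called 0 of the 39 lower. With p left unadjusted and under 0.05, it had 18 higher and 4 lower, beside 13.4% and 15.3% of all genes tested. edgeR called 7 of the 39 higher and 0 lower, and DESeq2 called 14 and 2. Over all genes tested, limma called 2.97% higher and 5.28% lower, and among the 9538 genes with a mean at least that of the lowest of the 39 it called 4.91% higher. edgeR called 2.44% higher and 5.46% lower, and DESeq2 8.89% and 10.7% of the 13604 genes to which it gave an adjusted p. The median log2 fold change of the 39 was 0.36, against 0.02 for all genes tested, and 32 of the 39 were positive, against 51.3% of all genes. As a share of all assigned reads the 39 genes took 0.537% and 0.509% in wild-type libraries, against 0.638% and 0.693% in transgenic ones. On GRCm38 the 7 genes lie apart from each other, Rfc5 at chr5:117378103-117389047, Rrm1 at chr7:102441695-102469771, Mcm5 at chr8:75109569-75128439, Gins2 at chr8:120578633-120589304, Ccne2 at chr4:11191351-11204779, Mcm6 at chr1:128331590-128359664 and Rrm2 at chr12:24708241-24714146. In RNA of whole arches, more cells in S phase and more of these mRNAs per cell cannot be told apart.

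Leaving out a library moved the counts over all genes as well as those of the 39. Such a fit has 1 library in a group, which is assumed to vary like the pair of the other genotype. Without a wild-type library the prior degrees of freedom were 6.14 and 6.19. Without a transgenic library they were infinite, so each gene took its variance wholly from the trend over all genes. The counts of these fits are therefore not alike. Without wild-type replicate 1 limma called 0 of the 39, as it called 0 of all 16746 genes, and without wild-type replicate 2 it called 0 of the 39 and 1 of all genes. In both of these fits 32 of the 39 had a positive log2 fold change and the rest a negative one. With the first transgenic library left out limma called 24 higher and 2 lower, beside 16.0% and 16.2% of all genes. With the second left out it called 9 higher and 2 lower, beside 7.17% and 11.4% of all genes. All 7 genes kept a positive log2 fold change in all these fits.

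**Figure D1:**
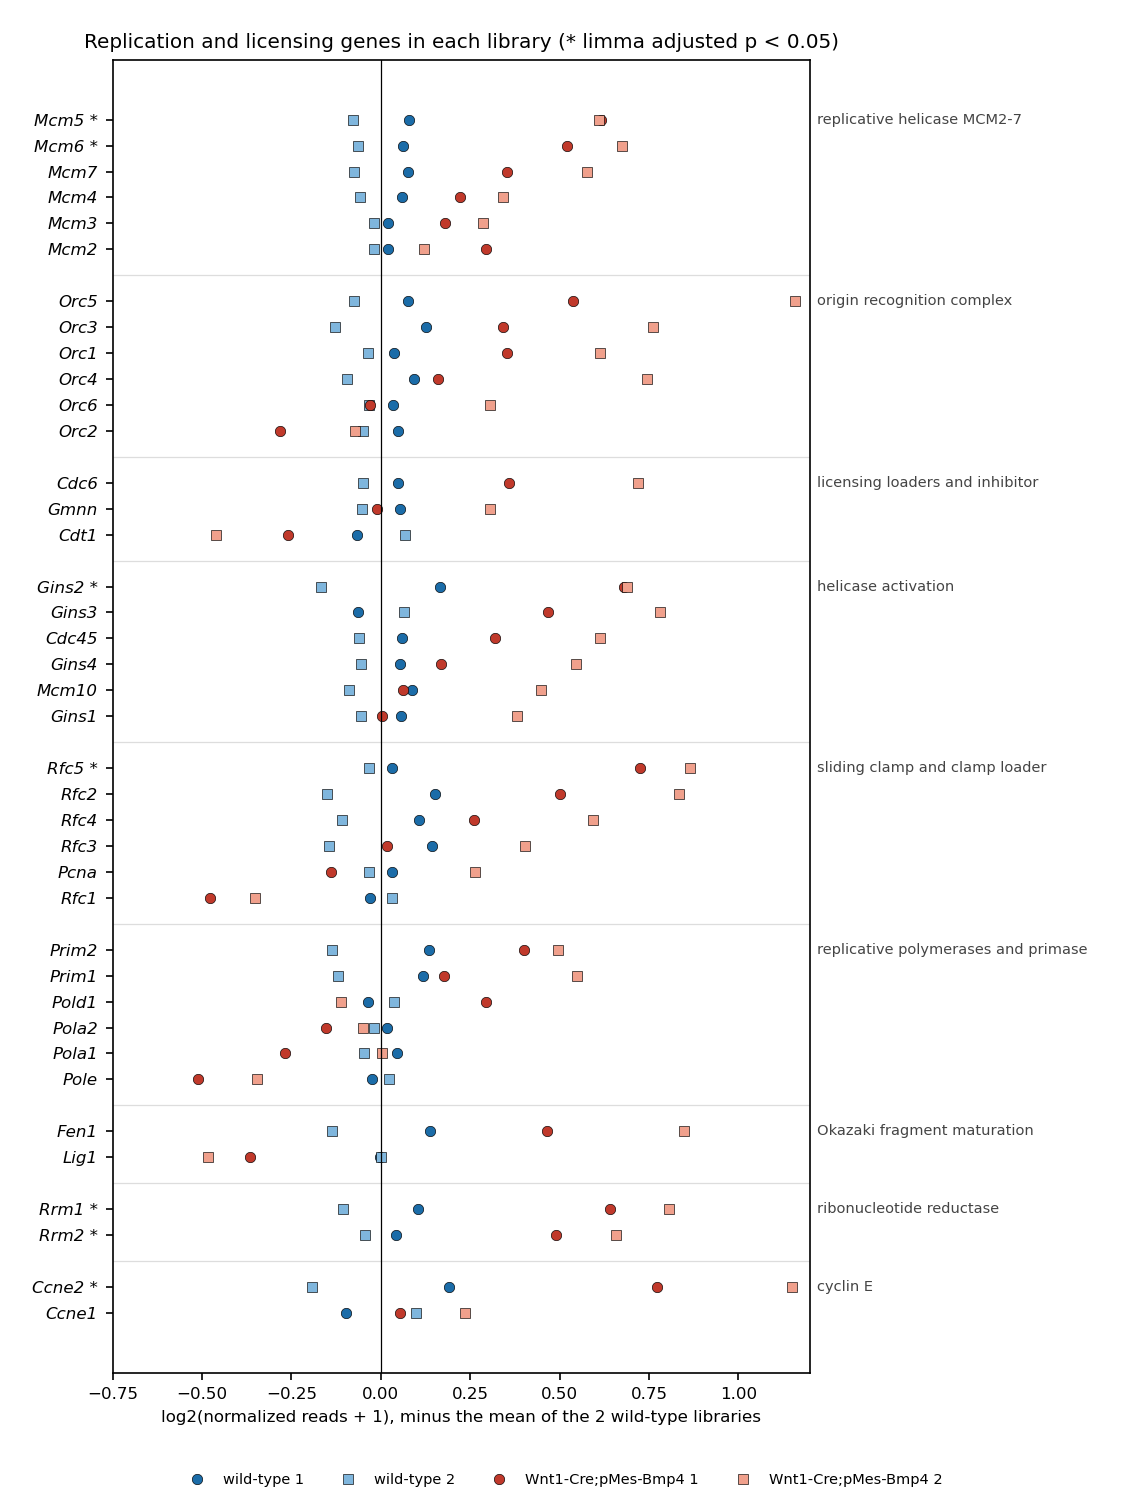
Each of the 39 genes (rows, grouped by role) in each library, as log2(normalized reads + 1) minus the mean of both wild-type libraries (horizontal axis). Circles are replicate 1 and squares replicate 2, wild-type in blue and Wnt1-Cre;pMes-Bmp4 in red, and stars mark the 7 genes called higher. Lig1, Rfc1, Pole, Cdt1, Orc2 and Pola2 lie left of the wild-type pair in both transgenic libraries.

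The 39 genes also differed between libraries of the same genotype, as the plot of every gene by library shows. Wild-type 2 was below wild-type 1 for 32 of 39 genes, with a median log2 difference of -0.11, where 49.2% of all genes tested were below. Wnt1-Cre;pMes-Bmp4 2 was above Wnt1-Cre;pMes-Bmp4 1 for 34 of 39, with a median of 0.26, where 49.6% of all genes were above. The closest libraries of the opposite groups, Wnt1-Cre;pMes-Bmp4 1 and wild-type 1, differed by a median of 0.16, with 26 of the 39 genes higher in the transgenic library. The farthest, Wnt1-Cre;pMes-Bmp4 2 and wild-type 2, differed by a median of 0.63, with 32 higher. Both transgenic libraries lay above both wild-type libraries for 24 of the 39 genes and below them for 6, against 30.0% and 29.7% of all genes tested, and for 9 the groups overlapped.

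MCM2-7 is a ring of 6 different subunits, and all 6 of its genes had positive values, of which 2 were called. For all 6 both transgenic libraries lay above both wild-type ones, as for 30.0% of all genes tested. Mcm5, a subunit beside the gate through which the ring opens, measured 8348 and 7489 normalized reads in the wild-type libraries, against 12110 and 12065 in those of the transgenic embryos. The transgenic libraries nearly coincided, and both stood clear of wild-type. Mcm5 rose 1.53-fold (log2 0.61 ± 0.12 SE, n = 2 per group, limma adjusted p = 0.0343). Mcm6 measured 8006 and 7340 in the wild-type libraries, against 10988 and 12228 in those of the transgenic embryos. It rose 1.51-fold (log2 0.60 ± 0.13 SE, limma adjusted p = 0.0380). Mcm7 read 10919 and 9829 against 13230 and 15458, a log2 fold change of 0.47 that did not pass (limma adjusted p 0.0768). Mcm4, Mcm3 and Mcm2 had the smallest differences of the ring, with log2 values of 0.28, 0.23 and 0.21 (limma adjusted p 0.188, 0.251 and 0.321). The subunits thus spanned 0.21 to 0.61, with SEs of about 0.12 to 0.14, and whether they differ from each other was not tested. Within a library, where the size factor cancels, Mcm5 over Mcm2 was 1.45 and 1.34 in wild-type libraries, against 1.74 and 1.96 in transgenic ones, a ratio chosen after its values were seen.

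Per kilobase of the longest annotated transcript, the levels within the ring were uneven. In wild-type Mcm7 stood at 3502 ± 260 normalized reads per kilobase (SD, n = 2), Mcm5 at 2342 ± 180 and Mcm6 at 1762 ± 108. Mcm3 at 1651 ± 32.7, Mcm4 at 1646 ± 94.4 and Mcm2 at 1625 ± 32.2 did not differ beyond their spread. Mcm7, Mcm5 and Mcm6 kept the first 3 places in all 4 libraries, while the other 3 changed places. The order depends on the gene model: with the length of all annotated exons joined, Mcm2 was last in all 4 libraries, at 816 ± 16.2 per kilobase in wild-type, and Mcm5 came before Mcm7 in Wnt1-Cre;pMes-Bmp4 1.

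The origin recognition complex had no call in limma or edgeR (0 of 6 in each), and 2 genes were higher in DESeq2. Of its 6 genes 5 had positive values, beside 51.3% of all genes tested, and 4 after a correction for transcript length. In limma 3 were higher at an unadjusted p under 0.05, beside 13.4% of all genes. Orc5, an ATP-binding subunit, had the largest difference, at 1464 and 1318 normalized reads in the wild-type libraries, against 2018 and 3101 in the transgenic ones. The transgenic libraries were both higher but lay far apart, and the log2 fold change of 0.85 ± 0.21 (SE) had a limma adjusted p of 0.0525. Orc3, Orc1 and Orc4 gave log2 values of 0.55, 0.48 and 0.45 (limma adjusted p 0.0958, 0.112 and 0.190). In Orc4 the difference came mainly from the second transgenic library, at 4338 normalized reads against 2891 in the first and 2762 and 2427 in wild-type. Orc6, the smallest subunit, overlapped between the groups, with a log2 fold change of 0.14. Orc2 went the other way, at 2187 and 2046 against 1742 and 2013, with a log2 fold change of -0.18 (limma adjusted p 0.444). Reads of Orc2 are uncertain, because 29.8% of its exon bases lie under Nif3l1 on the opposite strand and whether counting used the strand is not stated. Orc6 had the highest and Orc1 the lowest level per kilobase of the 6 in all 4 libraries, at 4222 ± 141 and 193 ± 6.89 normalized reads per kilobase in wild-type (SD, n = 2).

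None of the 3 licensing factors was called (0 in limma and edgeR, 1 higher in DESeq2), with 1 positive and 1 negative at an unadjusted p under 0.05. Cdc6, the loader that recruits MCM2-7 to the origin complex, measured 2299 and 2150 normalized reads in the wild-type libraries, against 2853 and 3664 in those of the transgenic embryos. Its log2 fold change of 0.54 ± 0.16 (SE) did not pass (limma adjusted p 0.0764). Cdt1, its partner in loading, measured 1933 and 2123 in the wild-type libraries, against 1694 and 1473 in those of the transgenic embryos. Both transgenic libraries were below both wild-type ones, and the log2 fold change of -0.36 ± 0.14 (SE) missed the threshold too (limma adjusted p 0.153). The inhibitor Gmnn overlapped between the groups, at 8147 and 7563 against 7794 and 9692. Within a library, Cdt1 over Cdc6 was 0.841 and 0.988 in wild-type libraries, against 0.594 and 0.402 in transgenic ones, without overlap. Cdt1 over Gmnn was 0.237 and 0.281 against 0.217 and 0.152. Both ratios were chosen after their values were seen, and with 2 against 2 libraries an exact permutation test cannot give a two-sided p below 0.33.

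Among the genes that activate the helicase, all 6 had positive values and Gins2 was called. Gins2, a subunit of the GINS complex, measured 2945 and 2337 normalized reads in the wild-type libraries, against 4205 and 4227 in those of the transgenic embryos. The transgenic libraries agreed closely while the wild-type libraries were further apart. Gins2 rose 1.6-fold (log2 0.68 ± 0.15 SE, limma adjusted p = 0.0397). This value is uncertain, since 67.3% of the exon bases of Gins2 lie opposite exons of Gse1, which itself had only 138 to 246 normalized reads per library. Gins3 and Cdc45, the latter a core part of the active helicase, gave 0.62 and 0.47 on the log2 scale and were not called (limma adjusted p 0.0619 and 0.0917). Gins4, Mcm10 and Gins1 gave 0.36, 0.25 and 0.19, and in Mcm10 and Gins1 the groups overlapped. The 4 GINS subunits, which act as a complex with 1 copy of each, differed in level per kilobase, from 304 ± 19.2 for Gins3 to 3880 ± 208 for Gins4 in wild-type (SD, n = 2).

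**Figure D2:**
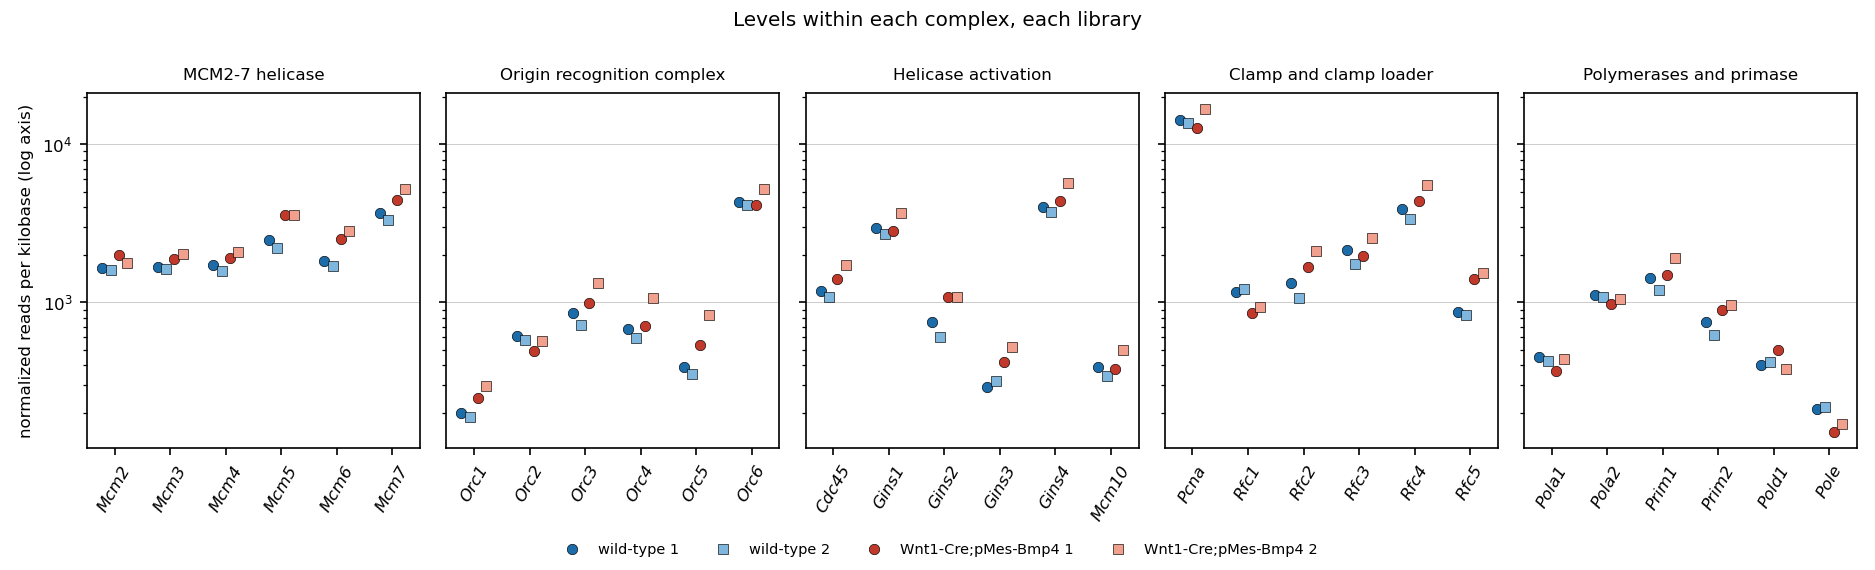
Normalized reads per kilobase of the longest transcript (vertical log axis) for the genes of 5 role groups (panels), with 1 point per library in the colours of the legend. Pcna lies above all other genes shown, Mcm7 above the other MCM genes and Orc6 above the other Orc genes in all 4 libraries, and the red points of Rfc5 lie above the blue ones while those of Rfc1 lie below.

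The clamp loader RFC consists of a large subunit, Rfc1, and 4 small subunits, and its large and small subunits gave values of opposite sign. Rfc5 measured 3253 and 3109 normalized reads in the wild-type libraries, against 5252 and 5789 in those of the transgenic embryos. The groups were wide apart relative to the differences within them. Rfc5 rose 1.74-fold (log2 0.79 ± 0.13 SE, limma adjusted p = 0.0233), with the smallest p of the 39. Exons of Wsb2 on the opposite strand cover 10.7% of its exon bases. Rfc2 read 6593 and 5343 against 8406 and 10575, a log2 fold change of 0.67 that narrowly missed the threshold (limma adjusted p 0.0520). Rfc4 and Rfc3 gave 0.43 and 0.21 (limma adjusted p 0.128 and 0.455). Rfc1, in contrast, measured 5539 and 5775 in the wild-type libraries, against 4061 and 4434 in those of the transgenic embryos. Both transgenic libraries were below wild-type, and the log2 fold change of -0.41 ± 0.12 (SE) missed the threshold (limma adjusted p 0.0799). The ratio of Rfc5 to Rfc1 within a library was 0.587 and 0.538 in wild-type libraries, against 1.29 and 1.31 in transgenic ones, 2.31-fold higher on average, a pair chosen after its values were seen. Pcna, the clamp itself and the gene with the highest level per kilobase of this group, overlapped between genotypes. It was at 21609 and 20668 against 19203 and 25348 normalized reads, with a log2 fold change of 0.06 ± 0.16 (SE).

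The polymerases and primase showed no common direction. Of 6 genes 3 had positive and 3 negative values, with a median log2 fold change of -0.00468, and 0 were called in limma, edgeR and DESeq2, with 1 positive and 1 negative at an unadjusted p under 0.05. Primase genes Prim2 and Prim1 gave 0.45 and 0.36 (limma adjusted p 0.1 and 0.199), and for both the transgenic libraries lay above the wild-type ones. Their partners in the polymerase alpha complex, Pola1 and Pola2, gave -0.13 and -0.10. Pole, the catalytic subunit of the leading strand polymerase, measured 1515 and 1565 normalized reads in the wild-type libraries, against 1080 and 1211 in those of the transgenic embryos. Its log2 fold change of -0.43 ± 0.14 (SE) did not pass (limma adjusted p 0.101). Pold1, the catalytic subunit of polymerase delta, overlapped at 1394 and 1467 against 1754 and 1324. Of the last steps of the lagging strand, Lig1, the DNA ligase that seals Okazaki fragments, measured 7298 and 7311 in the wild-type libraries, against 5669 and 5229 in those of the transgenic embryos. The wild-type libraries were nearly equal and both transgenic libraries were lower. Its log2 fold change of -0.42 ± 0.12 (SE) had a limma adjusted p of 0.0718. The flap nuclease gene Fen1 had the lowest values of the 39, 171 and 141 against 214 and 280, and its log2 fold change of 0.66 did not pass (limma adjusted p 0.135). Overlaps with exons of Gm10143 and Tmem258 on the opposite strand sum to 84.2% of the exon bases of Fen1. A base under both genes would be counted for each, so the share covered is at most this. The level of Fen1 and its change are both uncertain.

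Both genes of ribonucleotide reductase, the enzyme that makes deoxynucleotides, were called. Rrm1, the large catalytic subunit, measured 8015 and 6930 normalized reads in the wild-type libraries, against 11621 and 13021 in those of the transgenic embryos. It rose 1.65-fold (log2 0.72 ± 0.14 SE, limma adjusted p = 0.0301). Rrm2, the small subunit whose supply limits the enzyme in cycling cells, measured 16936 and 15945 in the wild-type libraries, against 23100 and 25916 in those of the transgenic embryos. It rose 1.49-fold (log2 0.57 ± 0.13 SE, limma adjusted p = 0.0407). For both genes all transgenic values exceeded all wild-type values. Of the E cyclins Ccne2 was called, and whether it differs from Ccne1 was not tested. Ccne2 measured 1113 and 853.7 normalized reads in the wild-type libraries, against 1666 and 2165 in those of the transgenic embryos, and rose 1.95-fold. Its log2 fold change of 0.96 ± 0.19 (SE), the largest of the 39, had a limma adjusted p of 0.0348. Exons of Ints8 on the opposite strand cover 17.4% of the exon bases of Ccne2, which leaves some uncertainty in its reads. Ccne1, which had the higher level per kilobase in every library, was at 4307 and 4929 against 4779 and 5421, so that the groups overlapped, with a log2 fold change of 0.14 (limma adjusted p 0.523). Ccne2 over Ccne1 was 0.259 and 0.173 in wild-type libraries, against 0.349 and 0.399 in transgenic ones, a ratio chosen after its values were seen.

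Promoter windows are shown for Rfc5 and Rrm1, which had the smallest p among the called genes with an entry, and for Mcm5 and Mcm6, called genes that hold E2F words and were chosen after these were seen. The sequences are the 250 bases before the transcription start in RefSeq on GRCm38.p6, 5′ to 3′ on the strand of the gene. They lie at chr5:117389024-117389273 (minus strand) for Rfc5, chr7:102441445-102441694 (plus) for Rrm1, chr8:75109259-75109508 (plus) for Mcm5 and chr1:128359706-128359955 (minus) for Mcm6. Capitals mark an E2F word, that is TTTCCCGC, TTTCGCGC, TTTGCCGC or TTTGGCGC on either strand.
Rfc5: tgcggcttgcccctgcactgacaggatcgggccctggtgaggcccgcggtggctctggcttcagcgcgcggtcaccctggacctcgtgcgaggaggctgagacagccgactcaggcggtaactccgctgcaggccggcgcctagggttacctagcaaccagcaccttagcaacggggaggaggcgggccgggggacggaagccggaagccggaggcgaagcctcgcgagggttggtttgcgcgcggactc
Rrm1: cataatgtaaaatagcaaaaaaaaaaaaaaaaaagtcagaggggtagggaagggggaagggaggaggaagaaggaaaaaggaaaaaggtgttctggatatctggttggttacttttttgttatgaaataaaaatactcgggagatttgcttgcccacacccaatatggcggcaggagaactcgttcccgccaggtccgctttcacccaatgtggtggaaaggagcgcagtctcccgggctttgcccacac
Mcm5: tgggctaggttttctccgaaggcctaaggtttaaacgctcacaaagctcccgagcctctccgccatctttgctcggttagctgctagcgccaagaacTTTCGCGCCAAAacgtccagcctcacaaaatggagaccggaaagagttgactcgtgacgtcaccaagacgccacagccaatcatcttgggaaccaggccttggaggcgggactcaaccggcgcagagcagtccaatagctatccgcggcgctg
Mcm6: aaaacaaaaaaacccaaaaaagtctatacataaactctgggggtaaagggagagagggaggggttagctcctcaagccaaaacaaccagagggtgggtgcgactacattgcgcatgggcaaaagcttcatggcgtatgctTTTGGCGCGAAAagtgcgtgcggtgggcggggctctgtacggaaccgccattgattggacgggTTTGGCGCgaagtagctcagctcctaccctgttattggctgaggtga

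In Mcm5 the 2 words lie on opposite strands and overlap, from base -153 to -142 before the start. Mcm6 has an overlapping pair of the same kind at -110 to -99 and a further word at -47 to -40. Rfc5 and Rrm1 have none of these words in the window shown or in the 50 bases after the start. Full windows of 300 bases were found for 30 of the 39 genes, some of which have more than 1, and a gene is counted if any of its windows holds a word. By this count 13 of the 30 genes (43.3%) hold an E2F word, against 4.63% of 10929 tested genes with a window. Of all 32851 windows, counted singly, 2.26% do. The 13 genes are Cdc6, Cdt1, Gins3, Lig1, Mcm3, Mcm5, Mcm6, Mcm7, Orc1, Orc3, Pola1, Pold1 and Rfc3. They include 2 of the 5 called genes with a window and 3 of the 6 genes with negative values, so genes with a word lay on either side of 0. Cdt1 and Lig1 have theirs just after a start, at 33 to 40 and 27 to 34. The shorter CCAAT box, CCAAT on either strand, was found for 19 of the 30 genes (63.3%), against 43% of tested genes with a window, and in 37.4% of all windows. The cell cycle homology region CHR, TTTGAA or TTCGAA on either strand, was found for 6 of the 30 genes (20.0%), against 16.3% of tested genes with a window, and in 19.2% of all windows. These are matches of letters, not measured binding sites.

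Fold changes of all genes varied with transcript length, and the 39 genes are therefore given with and without a correction for it. Across 16225 genes tested with a known length, Spearman's rho between length and log2 fold change was -0.278. Across the 39 genes, which range from 1087 to 7163 bases, rho was 0.12. Genes share libraries and are not independent, so both are descriptions. After a spline on transcript length was subtracted from each library, limma called 2 of the 39 higher, Rfc5 and Rrm1, and 0 lower, where it called 0.610% and 0.931% of all genes. At an unadjusted p under 0.05 there were then 11 higher and 2 lower, and the share of all genes at this cut was not computed. The median of the 39 was 0.24, against 0.00432 for all genes, and 30 were positive. Rrm1, with a transcript of 5475 bases, went from 0.72 to 0.99 (limma adjusted p 0.0397), and Rfc5 stayed at 0.79 (limma adjusted p 0.0474). Mcm6, Gins2, Ccne2 and Mcm5 then stood at 0.70, 0.70, 0.82 and 0.53 (limma adjusted p 0.0588, 0.0644, 0.0795 and 0.0798). Rrm2, with 2193 bases, went from 0.57 to 0.36 (limma adjusted p 0.176).

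Among the genes with negative values the correction separated Pole from Lig1 and Cdt1. Pole, the longest transcript of the 39, went from -0.43 to 0.00204. Lig1 and Cdt1 became more negative, at -0.53 and -0.54 (limma adjusted p 0.0665 and 0.0827), and Rfc1 went to -0.25. With GC content in the correction as well, limma called 9 of the 39 higher and 1 lower, against 3.99% and 4.60% of all genes. The 9 were Mcm5, Mcm6, Orc5, Cdc6, Gins2, Rfc2, Rfc5, Rrm1 and Ccne2, and the 1 lower was Lig1, at -0.49 with a limma adjusted p of 0.0305.

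**Figure D3:**
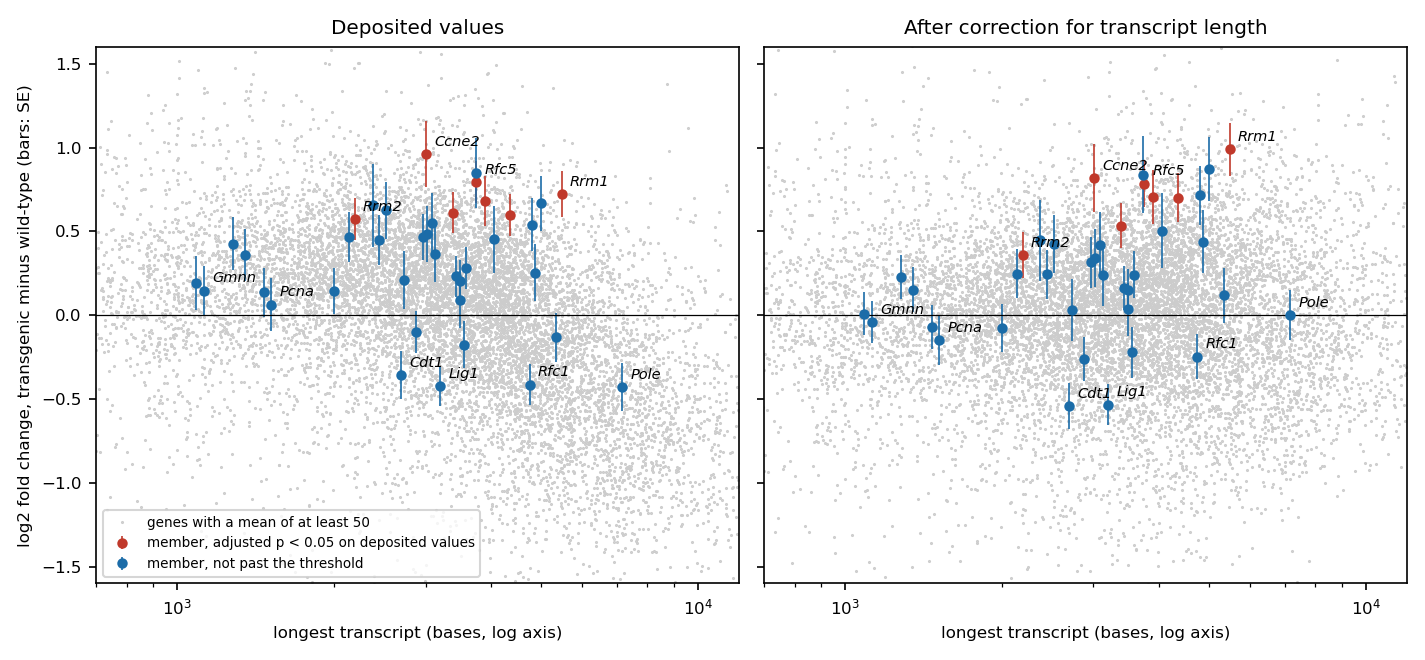
Log2 fold change (vertical axis) against the length of the longest transcript (horizontal log axis) for genes with a mean of at least 50 (grey) and for the 39 genes with their SE (red where called on the deposited values, blue otherwise). In the left panel Pole lies at -0.43, and in the right panel, after the length correction, at 0.00204, while Lig1 and Cdt1 stay below 0 in both.

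The other genes of replication and of the cell cycle, 104 in 10 groups listed by role, were called in both directions. Of 102 tested, 5 were higher and 7 lower in limma, with a median log2 fold change of 0.06, beside 2.97% and 5.28% of all genes. Accessory subunits of the polymerases (0 of 5 called) and replication protein A, which coats single strands (0 of 3), had medians of 0.28 and 0.36, with Rpa2 at 0.47, Rpa1 at 0.36, Pold2 at 0.40 and Pole3 at 0.42 (limma adjusted p 0.0791, 0.117, 0.0970 and 0.111). These 4 genes had an unadjusted p under 0.05, edgeR called 0 of the 8, and DESeq2 called 1, of replication protein A. The firing and fork factors had 0 of 14 called in limma and in edgeR, 2 lower in DESeq2, 2 positive and 3 negative genes at an unadjusted p under 0.05, and a median of -0.05. Topbp1, a scaffold for origin firing, gave -0.43 and Wdhd1, a fork factor, 0.41 (limma adjusted p 0.0745 and 0.0960). Other enzymes of nucleotide supply had 0 of 10 called in limma, edgeR and DESeq2, 2 positive genes at an unadjusted p under 0.05, and a median of 0.04. Thymidylate synthase, Tyms, gave 0.35 and the deoxycytidine kinase gene Dck gave 0.37 (limma adjusted p 0.143 and 0.146). Replication-coupled chromatin factors had 0 of 8 called in limma and edgeR and 1 higher in DESeq2, with 1 positive and 1 negative gene at an unadjusted p under 0.05. Among them were the histone chaperone genes Asf1b at 0.51 and Nasp at -0.36 (limma adjusted p 0.0583 and 0.107). Of clamp loader and processing genes 1 of 10 was lower, the topoisomerase gene Top1, at 18286 and 19489 normalized reads against 11936 and 12473 (log2 fold change -0.63, limma adjusted p 0.0312). After the length correction Top1 was at -0.62 and was not called (limma adjusted p 0.0616). Rnaseh2a, a subunit of the nuclease that removes RNA from DNA, gave 0.42 (limma adjusted p 0.126).

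The regulators upstream of S phase were split. Cdk2, the kinase that works with cyclin E, measured 1733 and 1688 normalized reads in the wild-type libraries, against 2625 and 2438 in those of the transgenic embryos. It rose with a log2 fold change of 0.56 and a limma adjusted p of 0.0451, and was at 0.46 and no longer called after the length correction (limma adjusted p 0.0923). In contrast, the D cyclin genes Ccnd1 and Ccnd2 and Cdk6, a kinase they activate, fell. Ccnd3 and Cdk4, of the same families, did not fall and were not called. Their log2 fold changes were 0.04 and 0.21 (limma adjusted p 0.900 and 0.352), and the groups overlapped for Ccnd3. Ccnd1 was at 3948 and 5061 against 2677 and 2185, a log2 fold change of -0.89 (limma adjusted p 0.0321). Ccnd2 was at -0.64 and Cdk6 at -1.38 (limma adjusted p 0.0496 and 0.0211), and edgeR did not call Ccnd2 (edgeR adjusted p 0.0516). After the length correction Ccnd1 kept -0.90 (limma adjusted p 0.0482), while Ccnd2 and Cdk6, with transcripts of 6330 and 11525 bases, gave -0.28 and -0.73 and were no longer called (limma adjusted p 0.302 and 0.0651). Fbxw7, part of the ubiquitin ligase that marks cyclin E for destruction, was lower at -1.12 (limma adjusted p 0.026) and at -0.99 after the length correction (0.0474). Of the 14 genes tested in this group limma called 1 higher and 4 lower, edgeR 1 and 3, and DESeq2 1 and 4.

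Of 13 genes of E2F and pocket proteins, 1 was higher, the repressor E2f6, at 1940 and 2076 against 2953 and 2929 normalized reads (log2 fold change 0.55, limma adjusted p 0.0451). The activator E2f3 gave -0.82 (limma adjusted p 0.0526, not called), and the median of the group was -0.19. Among 8 checkpoint genes Hus1, part of a clamp that senses damage, was lower at -0.70 (limma adjusted p 0.0397), and Rad1, of the same clamp, was at 0.57 (limma adjusted p 0.0594). Of 17 mitosis genes 3 were higher, Ccnb1, Ccnb2 and Aurka, and 1 was lower, Mki67, with a median of 0.21. Their log2 fold changes were 0.72, 0.53, 0.67 and -0.73 in that order (limma adjusted p 0.0401, 0.0458, 0.0479 and 0.0268). Of the 17, edgeR called 1 higher, Ccnb1, and 1 lower, Mki67, and DESeq2 called 5 and 1. Ccnb2 and Aurka did not pass in edgeR (edgeR adjusted p 0.0546 and 0.0589). E2f6, Hus1, Ccnb1, Ccnb2, Aurka and Mki67 were no longer called in limma after the length correction. Mki67, with a transcript of 10061 bases, was then at -0.13, while E2f6 was at 0.41, Hus1 at -0.55, Ccnb1 at 0.52, Ccnb2 at 0.32 and Aurka at 0.44.

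**Figure D4:**
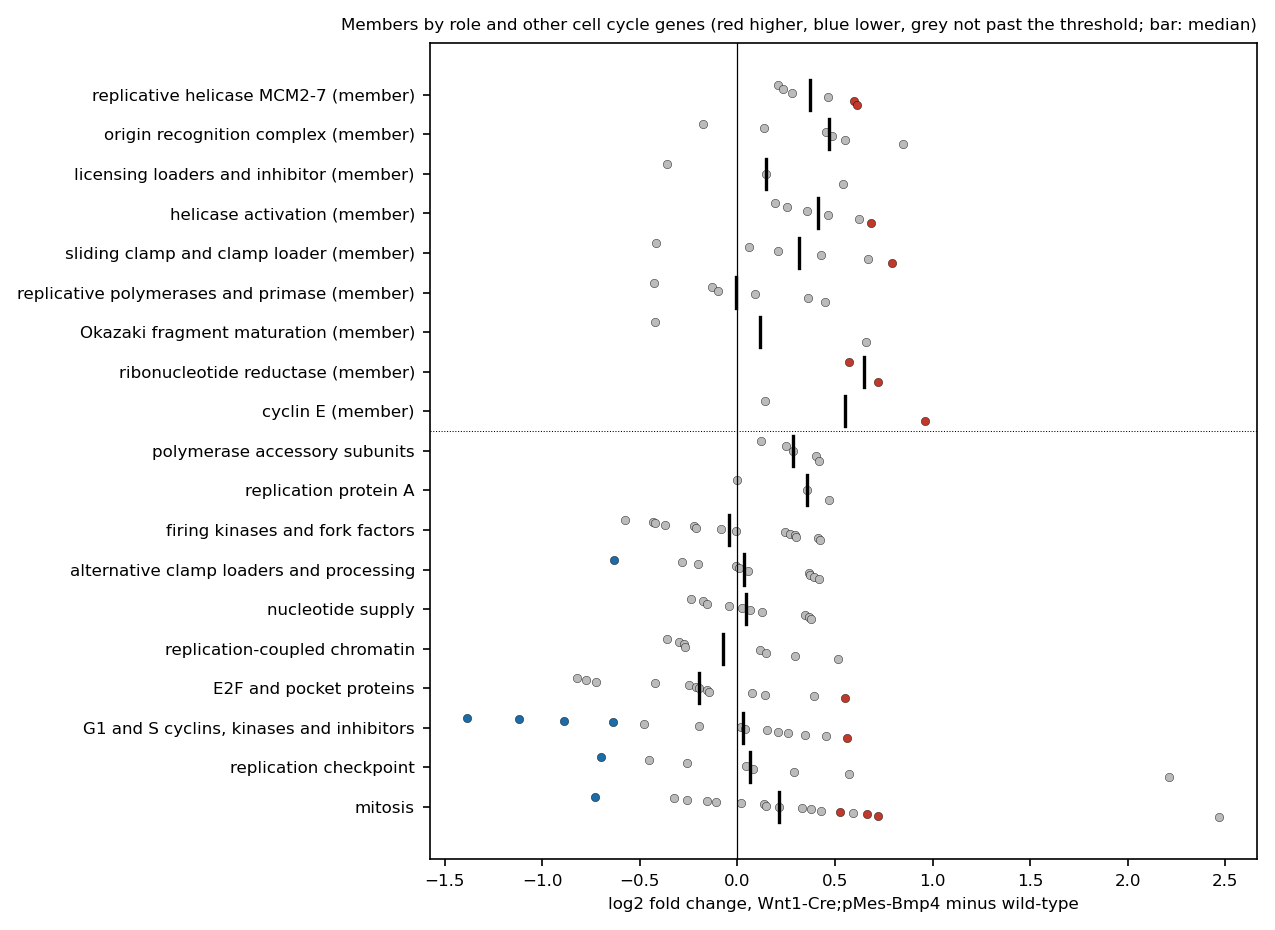
Log2 fold change (horizontal axis) of each gene tested in the 9 role groups of the 39 genes (above the dotted line) and in 10 groups of other cell cycle genes, red where called higher, blue where called lower, grey otherwise, with a bar at the median. Ribonucleotide reductase has the highest median, 0.65, and E2F and pocket proteins the lowest, -0.19.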

How the data were processed

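RNA of first pharyngeal arches was selected for poly(A), fragmented and reverse transcribed with random primers, per the labels' protocols. The deposited values are a signal per gene that the authors made, per the file headers, from featureCounts read counts. Dividing each column by the smallest value above 0 in it returned whole reads for 100% of values, within 0.01, so the authors' values are counts over a size factor. fastp 0.21.0 and mm10 are named, per the submitters' processing notes. The sources used here do not give the aligner, the annotation or the strand setting.

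The main test was limma 3.58.1 (R 4.3.3) with a variance trend on log2(value + 1), two-sided, across all 16746 genes whose mean reached 10, with Benjamini-Hochberg adjustment over all of them and a threshold of 0.05. Fold changes on the log2(value + 1) scale understate those of low genes. There were 2 residual and 5.26 prior degrees of freedom. On the recovered reads edgeR 4.0.16 (quasi-likelihood), which called 409 genes higher and 915 lower, and DESeq2 1.42.0 were run. Lengths and exon overlaps were taken from GENCODE M21 (GRCm38, which is mm10) and promoters from RefSeq on GRCm38.p6. Of the 39 genes 15 had exons that overlap another gene. The length correction subtracted a spline with 4 degrees of freedom, fitted per library where the mean reached 50. The 39 genes and all lists were chosen with earlier results of these data known. Alternatives were other pseudocounts, filters, scalings, tools, blocks, and leaving out each library. All 39 genes could be named. From each other list at most 6 called genes were named by smallest p, or, where fewer than 2 were called, the 2 genes with the smallest p. Ccnd3, Cdk4, Kif11 and Rad9a were named in addition, after their values were seen. Figures used matplotlib 3.10.9 in Python 3.11.15.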

Additional observations from a re-analysis of the deposited data

How the results depend on the processing

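Limits come first from 2 libraries per genotype. Counts of the 39 genes called higher and lower were 7 and 0, and those of the 102 other cell cycle genes were 5 and 7. Leaving out 1 library at a time gave 0 to 24 higher and 0 to 2 lower of the 39, 0 to 24 and 0 to 14 of the others, and a median log2 fold change of the 39 from 0.26 to 0.54. limma without the trend called 0 in all 4 counts, and 0 of all genes tested. It had 11 of the 39 higher at an unadjusted p under 0.05, where the share of all genes was not computed. DESeq2 gave 14 and 2 of the 39 and 10 higher and 10 lower of the others, beside 8.89% and 10.7% of all genes with an adjusted p. A threshold of 0.1 gave 14 and 2, and 13 and 11, beside 7.80% and 10.3% of all genes. Of the 39 lower, quantile normalization gave 2 and the length and GC correction 1, beside 5.70% and 4.60% of all genes. That correction moved the median of the 39 to 0.20. Of the others higher, a mean of at least 50 and robust hyperparameters each gave 8, beside 5.79% and 4.83% of all genes. TMM scaling and edgeR each gave 3, beside 2.52% and 2.44%, and quantile normalization gave 2, beside 3.13%. The length correction gave 2 higher of the 39, and 0 higher and 2 lower of the others.

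The replicate number as a block gave 2 higher of the 39, and 1 higher and 3 lower of the others; with the length correction the block gave 2 and 2 of the others. Between wild-type 2 minus 1 and transgenic 2 minus 1 the Pearson correlation was weak across all genes tested, at -0.147, and -0.437 across the 39. Same-numbered libraries thus did not deviate together, and the numbers were not taken to pair the libraries. The crossed numbers as a block, added after seeing the data, gave 20 and 4 of the 39, 25 and 15 of the others, and 10.5% and 11.7% of all genes. The block by number gave 0.985% and 3.24% of all genes, and with the length correction 1.53% and 2.27%.

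Signs changed for genes that were not called. After the length correction, with or without the block, the log2 fold changes were -0.072 for Orc6, -0.040 for Gmnn, -0.15 for Pcna, 0.12 for Pola1, 0.0020 for Pole and -0.077 for Ccne1. With GC content as well they were -0.23 for Orc6, -0.086 for Gmnn, -0.11 for Gins1, -0.31 for Pcna, -0.14 for Rfc3, 0.064 for Pole and -0.068 for Ccne1. Leaving out 1 library at a time gave -0.029 to 0.304 for Orc6, -0.010 to 0.304 for Gmnn, -0.14 to 0.262 for Pcna, -0.267 to 0.0032 for Pola1 and -0.11 to 0.295 for Pold1. The cause was not tested.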

Other observations

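Among the 102 other cell cycle genes tested, Kif11 and Rad9a differed most between the transgenic libraries, and both were chosen after their values were seen. Kif11, a motor of the mitotic spindle, measured 81.6 and 181 normalized reads in the wild-type libraries, against 325.3 and 1413 in those of the transgenic embryos, with a log2 fold change of 2.47 ± 0.66 (SE) that did not pass (limma adjusted p 0.0611). Rad9a, of the same damage-sensing clamp as Hus1 and Rad1, was at 46 and 30.9 against 71.5 and 442.5 (log2 2.21 ± 0.76 SE, limma adjusted p = 0.109). In both, the second transgenic library was far above the other 3.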
